A study of Mus musculus with 11 samples.

Results

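The genes described here encode the killing apparatus of cytotoxic lymphocytes: 5 granzymes (Gzma, Gzmb, Gzmc, Gzmk and Gzmm), the pore former perforin (Prf1), the granule proteoglycan serglycin (Srgn), the death ligands Fas ligand (Fasl) and TRAIL (Tnfsf10), and the granzyme B inhibitor Serpinb9. They were chosen by name, with earlier results of these data known, as 10 genes of the 55414 in the gene table, and all 10 were found there. All 10 also passed the filter on low counts that left 22238 genes for testing. The RNA came from mouse OT-I CD8+ T cells, which carry a transgenic T cell receptor that recognises a peptide of chicken ovalbumin. At 12 h there were 3 groups: 4 naive libraries from untreated cells, 4 stimulated libraries from cells given the solvent DMSO and the stimulating peptide N4, and 3 Torin libraries from cells given N4 and Torin, an inhibitor of the kinase mTOR. The genotype OT-I was shared by all groups. Naive and stimulated cells therefore differed in DMSO as well as in peptide, and no group received Torin without peptide. Age, sex, the Torin dose, the purity of the cells and the meaning of the replicate numbers are not given in the labels. Where nothing says that samples came from separate animals, p-values measure only the spread between these samples, which may be technical.

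A cytotoxic T cell kills in more than one way. In the granule pathway, perforin and granzymes are stored on serglycin in secretory lysosomes and released toward the target, where perforin opens the membrane to granzymes that cleave intracellular substrates. In the receptor pathway, Fas ligand and TRAIL on the T cell engage death receptors on the target and start a caspase cascade. Naive CD8 T cells hold little of this machinery and make it after antigen recognition, and Serpinb9 is made alongside as a shield against the cell's own granzyme B.

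Totals ran from 241.9e6 to 405.9e6 estimated counts per library, a ratio of 1.68 between the deepest and the shallowest. Levels are given as CPM, estimated counts scaled to a common library size with TMM composition factors, which adjust for genes that take a large share of a library. Markers of the labelled cell type were present: Cd8a stood at 91.0 to 270.3 CPM and Cd3e at 190.3 to 615.0 CPM, while Cd4 reached at most 0.0288 CPM. Some libraries also held markers of other cell types. B cell and plasma cell markers summed to 48312, 14596 and 13412 CPM in naive 4, stimulated 4 and Torin 4, against at most 370 CPM elsewhere. Granulocyte markers summed to 8831 CPM in naive 2 and 2105 CPM in stimulated 2, against at most 180.7 CPM elsewhere. In bulk RNA, fewer cells of a type and less RNA per cell cannot be told apart.

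After 12 h of N4, 5 of the 10 genes rose and 1 fell in edgeR's quasi-likelihood test at an adjusted p below 0.05 (4 libraries against 4). Gzmb, Gzmc, Serpinb9, Prf1 and Srgn were higher, and Gzmm was lower. Of all genes tested, 39.5% passed in this comparison, 19.2% higher and 20.2% lower. This share depends on the level of the genes counted. In a fit of the 8550 genes with a mean of at least 5 CPM, 5881 passed, among them 4 members. The shares over all genes here and below also count genes under that level. Without the libraries of number 4, 5 of the 10 genes passed, where 6902 of 22371 genes tested passed. Without those of number 2, 5 of the 10 also passed, where 7369 of 21481 genes tested passed. Gzmm missed the threshold in both fits. With the replicate number as a block in the model 8 passed, adding Fasl, higher, and Gzmk, lower, where 41.2% of all genes passed. With Torin added to N4, 1 of the 10 genes passed against stimulated cells, Prf1, which was lower. In this comparison 4.62% of all genes passed and 2.30% were lower. In the fit at a mean of at least 5 CPM, 1378 of 8550 genes passed, with 1 member. The fit with the block called 2, adding Fasl, which was higher with Torin, where 4.34% of all genes passed. Against naive cells, 4 of the 10 passed in the Torin libraries, Gzmb, Srgn, Fasl and Serpinb9, each higher. Here 32.2% of all genes passed and 16.4% were higher. With the block, Gzma, Gzmk and Gzmm also passed in Torin against naive cells, each lower, with values given in the last section. The share of all genes in that fit is not given here. Over the alternative fits of this comparison, 3594 to 9244 of all genes passed, against 7163 in the main fit. The median log2 change of the 10 genes was 1.36 in stimulated against naive cells, beside -0.22 over all genes. It was -0.07 in Torin against stimulated cells, beside -0.02, and 0.46 in Torin against naive cells, beside -0.18. The comparisons share libraries and are not independent of each other.

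**Figure D1:**
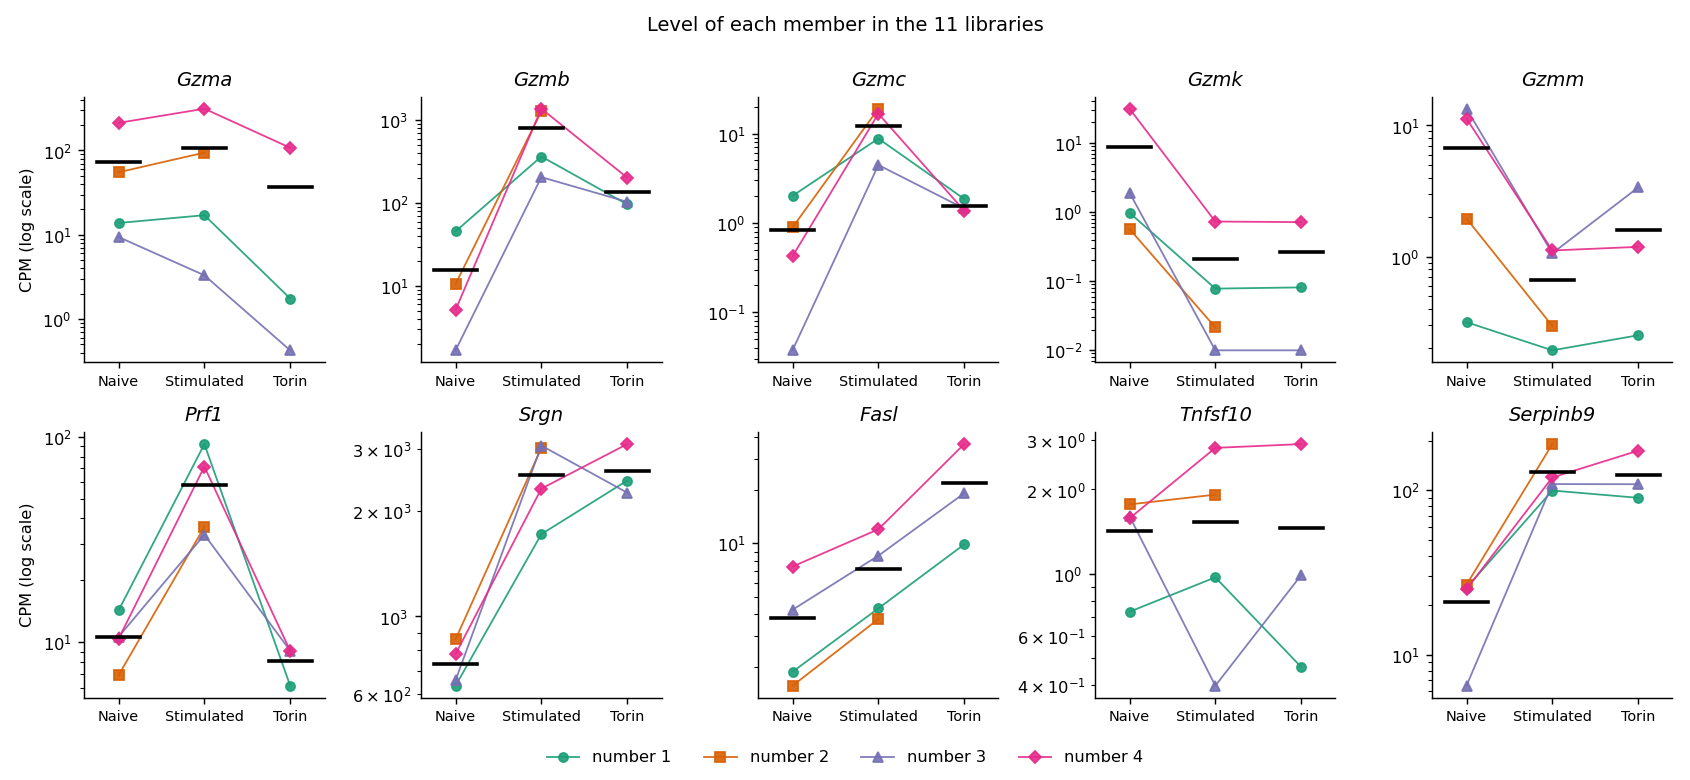
Level of each of the 10 genes in CPM on a log axis, per library and group. Points of one replicate number are joined by a line, black bars are group means, and Gzmk values of 0 (stimulated 3 and Torin 3) are drawn at 0.01. Prf1 rises in the stimulated libraries to 33.3 to 92.0 CPM and stands at 6.14 to 9.09 CPM with Torin. Fasl is highest with Torin in each number that has a Torin library.

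The 250 bases before the annotated start are shown for the genes on which the Torin comparison turns: the granule genes with lower levels in each Torin library (Gzmb, Gzmc and Prf1), and Fasl and Serpinb9, whose levels in the Torin libraries were not all below the stimulated ones. The sequences and their positions on build GRCm38.p6 are RefSeq's, and all 10 genes were matched there by symbol. They are printed 5′ to 3′ on the strand of the gene, at chr14:56262335-56262584 (minus strand), chr14:56234658-56234907 (minus), chr10:61297586-61297835 (plus), chr1:161788496-161788745 (minus) and chr13:33004291-33004540 (plus). Capitals mark matches, on either strand, to the letters TGTGGT (the core bound by RUNX factors), TGANTCA (AP-1) and GGAAA (the NFAT core).
Gzmb promoter: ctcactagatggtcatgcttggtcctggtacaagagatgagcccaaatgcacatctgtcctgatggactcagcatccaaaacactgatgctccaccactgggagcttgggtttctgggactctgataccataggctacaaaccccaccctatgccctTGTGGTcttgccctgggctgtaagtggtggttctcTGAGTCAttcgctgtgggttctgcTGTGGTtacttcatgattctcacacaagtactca
Gzmc promoter: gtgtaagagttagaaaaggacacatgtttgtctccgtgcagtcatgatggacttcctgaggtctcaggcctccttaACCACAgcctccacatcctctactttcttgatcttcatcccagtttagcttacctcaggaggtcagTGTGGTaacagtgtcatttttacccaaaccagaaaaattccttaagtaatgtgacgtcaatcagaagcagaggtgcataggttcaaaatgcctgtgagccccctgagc
Prf1 promoter: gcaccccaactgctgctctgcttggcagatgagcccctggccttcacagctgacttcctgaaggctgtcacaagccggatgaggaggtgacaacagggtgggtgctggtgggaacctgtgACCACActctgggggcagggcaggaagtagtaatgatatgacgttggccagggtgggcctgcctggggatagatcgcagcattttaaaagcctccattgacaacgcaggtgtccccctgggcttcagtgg
Fasl promoter: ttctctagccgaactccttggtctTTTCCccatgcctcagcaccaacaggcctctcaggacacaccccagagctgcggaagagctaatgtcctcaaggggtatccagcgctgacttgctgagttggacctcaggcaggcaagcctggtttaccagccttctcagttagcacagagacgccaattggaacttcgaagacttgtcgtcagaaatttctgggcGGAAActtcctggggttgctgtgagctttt
Serpinb9 promoter: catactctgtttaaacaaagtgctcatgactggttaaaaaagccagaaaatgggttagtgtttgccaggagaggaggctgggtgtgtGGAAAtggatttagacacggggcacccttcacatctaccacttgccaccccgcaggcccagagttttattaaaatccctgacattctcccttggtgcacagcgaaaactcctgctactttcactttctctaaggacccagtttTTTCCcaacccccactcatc

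In these windows TGTGGT occurred at 2 places for Gzmb, 2 for Gzmc and 1 for Prf1, and at none for Fasl or Serpinb9. These letters do not follow the Torin differences over all 10 genes: they also occurred once each in a window of Gzma, of Gzmm and of Srgn, at the start of its main transcript Srgn-201, and Srgn and Gzmm were not lower with Torin by their fitted differences (0.04 and 1.27 on the log2 scale). TGANTCA occurred once, for Gzmb. GGAAA occurred at 2 places each for Fasl and Serpinb9 and at none for the other 3. Over 32817 promoter windows of the same length, 14.0% held TGTGGT, 6.8% held TGANTCA and 55.6% held GGAAA. T-box (GGTGTGA, 3.3% of windows), STAT (TTCNNNGAA, 7.0%) and E-box (CACGTG, 6.0%) letters did not occur in these 5 windows, and no marked matches overlap. The RefSeq start lay 74 bases from the nearest GENCODE transcript start for Gzmb and at most 3 bases from it for the other 4. Letter matches are descriptions of the sequence, and their part in the levels below was not tested.

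Granzyme B cleaves caspases and other proteins after aspartate and is the main apoptotic granzyme of activated CD8 T cells. Gzmb (ENSMUSG00000015437) stood at 45.6, 10.6, 1.68 and 5.16 CPM in naive 1 to 4 and at 365, 1285, 206 and 1374 CPM in stimulated 1 to 4. In the Torin libraries it stood at 96.6, 104 and 203 CPM (numbers 1, 3 and 4). The 3 groups did not overlap in any pairing: each Torin library lay above the highest naive library and below the lowest stimulated library, 206 CPM. The rise with N4 was 5.68 on the log2 scale (SE 1.08, adjusted p = 0.00155, edgeR), and 7.11 without naive 1, the naive library with the highest level. Between libraries of the same number the ratio of stimulated to naive was 8.0, 121, 122 and 266.

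Torin against stimulated cells gave a log2 difference of -2.59 for Gzmb (SE 1.04, adjusted p = 0.195, edgeR), which missed the threshold, while DESeq2, in which 13.7% of all genes passed, gave -2.60 and an adjusted p of 0.0272. Within numbers 1, 3 and 4 the Torin level was 3.78-, 1.98- and 6.78-fold lower. Against naive cells Gzmb was still higher in the Torin libraries, by 3.09 on the log2 scale (SE 0.99, adjusted p = 0.0337, edgeR). That call was lost without naive 2, naive 4, Torin 1, Torin 3 or Torin 4 (adjusted p of 0.056 to 0.0836, edgeR), and without naive 1 the change was 4.53. In all, 8 of the 22 alternative fits in edgeR or DESeq2 lost it, with an adjusted p of up to 0.161. The naive libraries spread widely, from 1.68 CPM in naive 3 to 45.6 CPM in naive 1.

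Gzmc encodes granzyme C, a rodent granzyme whose gene lies in the same cluster as Gzmb and is best known from strongly or repeatedly activated T cells. Its levels (ENSMUSG00000079186) were far lower: 2.01, 0.892, 0.0377 and 0.425 CPM in naive 1 to 4, 8.79, 18.9, 4.45 and 16.7 CPM in stimulated 1 to 4, and 1.86, 1.45 and 1.37 CPM with Torin. All stimulated libraries lay above all others, while naive and Torin libraries overlapped. The rise with N4 was 3.86 on the log2 scale (SE 0.90, adjusted p = 0.00566, edgeR), and 4.75 without naive 1. With Torin the log2 difference from stimulated cells was -2.97 (SE 0.98, adjusted p = 0.118, edgeR). It passed in DESeq2 (adjusted p = 0.00508), in a fit of the 2 groups alone (0.0241) and without naive 3 (0.0351). Against naive cells the Torin difference was 0.89 (SE 0.87, adjusted p = 0.482).

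The Gzmb and Gzmc transcripts shared 78.8% of 831 aligned bases in GENCODE M21, with a longest common run of 49 bases. Gzmc shared 73.6% to 77.5% with each of the other granzymes of the cluster, Gzmd, Gzme, Gzmf, Gzmg and Gzmn. How the authors' counting treated reads that fit several of them is not given in the sources used here. Those other granzymes were at or near 0: together they summed to at most 0.0616 CPM in any naive library, 0.36 CPM with N4 alone and 0.131 CPM with Torin. Only Gzmf, 1 of these 5 genes, passed the filter on low counts. It was listed at 0 in all 4 naive libraries and reached 0.36 CPM in the highest stimulated library, and its test passed against naive cells in stimulated (adjusted p = 0.0075) and Torin libraries (adjusted p = 0.0134, edgeR).

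Gzma, Gzmk and Gzmm followed other patterns. Granzyme A is a tryptase that cuts after basic residues, granzyme K has a related specificity, and granzyme M prefers methionine and leucine. Gzma (ENSMUSG00000023132) stood at 13.8, 55.1, 9.40 and 213 CPM in naive 1 to 4, at 17.1, 94.3, 3.31 and 313 CPM in stimulated 1 to 4, and at 1.75, 0.426 and 108 CPM in Torin 1, 3 and 4. The levels followed the number of the library, with number 4 highest in each group and number 3 lowest. The log2 difference of stimulated from naive cells was 0.56 (SE 1.62, adjusted p = 0.817, edgeR).

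For Torin against stimulated cells, Gzma differed by -1.55 on the log2 scale (SE 1.83, adjusted p = 0.72, edgeR). Within numbers 1, 3 and 4 it was 9.74-, 7.76- and 2.91-fold lower with Torin. With the number as a block the difference was -2.59 (adjusted p = 0.0585), and it passed only when that block was fitted to these 2 groups alone (-2.55, adjusted p = 0.038), an alternative added after the data were seen. Lower levels in each of the 3 shared numbers were found for 20.7% of all genes tested.

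Some markers of other cells were, like Gzma, highest in number 4, and others were not. Klrb1c, which encodes the natural killer receptor NK1.1, stood at 2.84, 4.42, 2.25 and 9.34 CPM in naive 1 to 4 and at 0.365, 1.72, 0.0769 and 5.16 CPM in stimulated 1 to 4. Klra9, a natural killer receptor gene, reached 18.0, 6.55 and 9.83 CPM in naive 4, stimulated 4 and Torin 4, and at most 0.754 CPM elsewhere. Ncr1, another defining natural killer gene, was at 0 in stimulated 3, Torin 1 and Torin 3. In contrast, Fcer1g and Tyrobp, of the same list, were highest in naive 2 (1828 and 1005 CPM, against 333.8 and 271.4 CPM in naive 4), and Tcrg-C1 in naive 3. Summed over the list of natural killer, gamma-delta and invariant T cell markers (14 of 14 matched), the level ran from 324.4 to 2956 CPM in naive libraries. It ran from 148.2 to 565.6 CPM in stimulated ones and from 174.3 to 332 CPM with Torin, highest in naive 2, stimulated 2 and Torin 4. Fcer1g and Tyrobp held most of the sum in naive 2, the library with the highest granulocyte markers, so the sum does not show where the other genes were highest. Among naive libraries, Ncr1, Klra8, Klra4, Klre1, Trdc, Zbtb16 and Eomes were also highest in naive 4. Fcgr3 was highest in naive 2 and Tcrg-C2 in naive 3. The part of natural killer and other cells in the levels of Gzma and Gzmk was not tested.

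Gzmk (ENSMUSG00000042385) was low outside 1 library: 0.98, 0.569, 1.91 and 31.4 CPM in naive 1 to 4, 0.0782, 0.0215, 0 and 0.73 CPM in stimulated 1 to 4, and 0.0815, 0 and 0.717 CPM with Torin. Each stimulated library lay below the naive library of its number. The log2 difference was -5.38 (SE 2.04, adjusted p = 0.0571, edgeR), and with the replicate number as a block Gzmk fell by 5.54 (adjusted p = 0.00212, in a fit where 41.2% of all genes passed). It also passed without naive 2 (adjusted p = 0.0487), stimulated 4 (0.0241) or Torin 3 (0.0486). Without naive 4 the difference was -2.47 (adjusted p = 0.314). The counts of Gzmk were divided over 3 transcripts, with 33.2% to 47.8% in Gzmk-201 and 37.6% to 58.6% in Gzmk-202 in naive libraries.

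Gzmm (ENSMUSG00000054206) stood at 0.317, 1.95, 13.4 and 11.3 CPM in naive 1 to 4, 0.194, 0.297, 1.06 and 1.12 CPM in stimulated 1 to 4, and 0.252, 3.37 and 1.19 CPM with Torin. It was higher in numbers 3 and 4 than in 1 and 2 in each group. Gzmm fell with N4 by 3.34 on the log2 scale (SE 1.14, adjusted p = 0.0377, edgeR), lower in 4 of 4 numbers. The call was lost without any 1 of naive 3, naive 4, stimulated 1 to 4 or Torin 4 (adjusted p of 0.053 to 0.0914, edgeR). It was also lost without all libraries of number 4 (adjusted p = 0.128) or of number 2 (adjusted p = 0.0795, edgeR). It held with the block (fell by 2.72, adjusted p = 0.0034, edgeR). In Torin libraries the difference from stimulated cells was 1.27 (SE 1.12, adjusted p = 0.603).

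**Figure D2:**
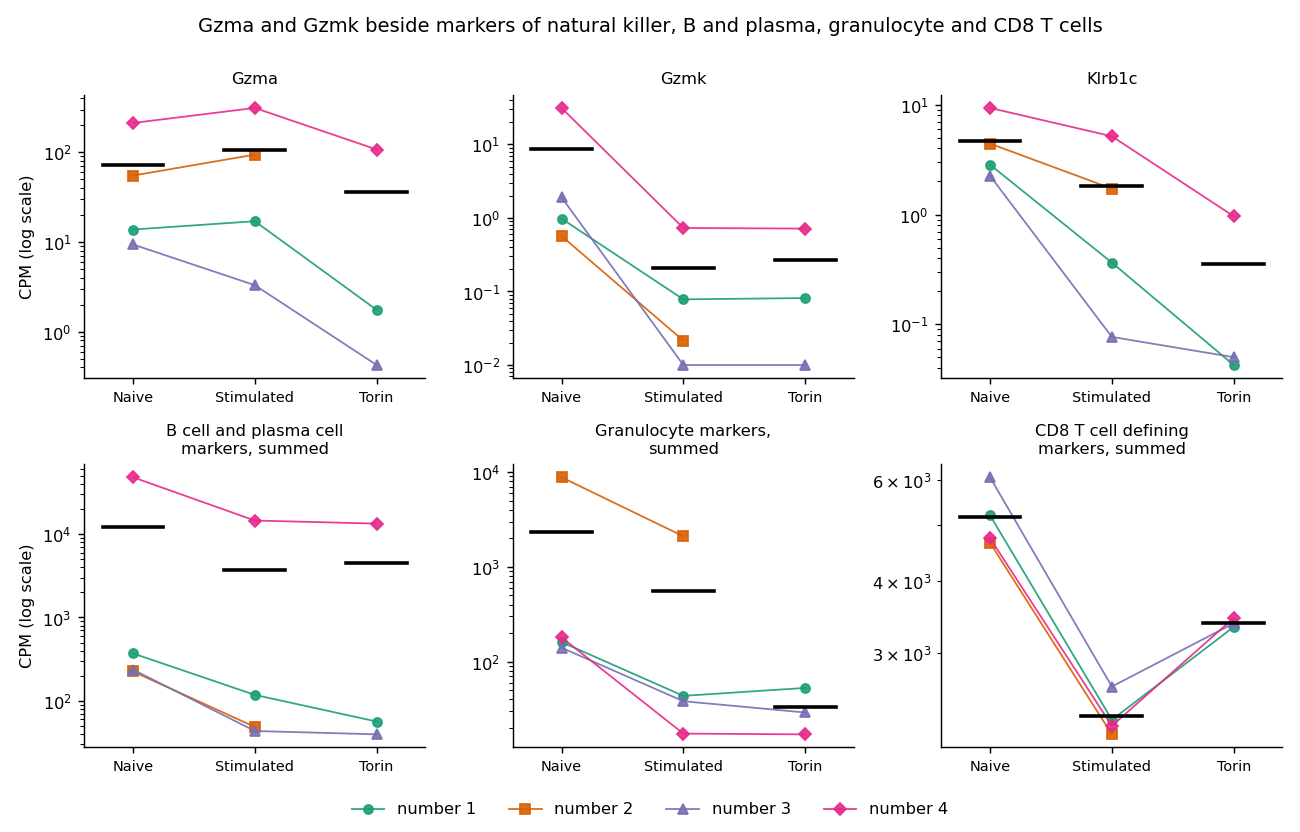
Gzma, Gzmk, the natural killer gene Klrb1c and the summed levels of 3 marker lists per library, in CPM on a log axis. Points of one number are joined, black bars are group means, and Gzmk values of 0 are drawn at 0.01. Libraries of number 4 are highest for Gzma, Gzmk, Klrb1c and B cell and plasma cell markers in every group, and those of number 2 for granulocyte markers in both groups that have them.

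Perforin is the pore-forming protein without which granzymes do not enter target cells. Prf1 (ENSMUSG00000037202) stood at 14.3, 6.91, 10.6 and 10.4 CPM in naive 1 to 4 and at 92.0, 36.4, 33.3 and 71.4 CPM in stimulated 1 to 4. With Torin it stood at 6.14, 9.09 and 9.08 CPM, below every stimulated library and within or below the naive range. The rise with N4 was 2.46 on the log2 scale (SE 0.36, adjusted p = 0.000258, edgeR), higher in 4 of 4 numbers.

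Prf1 fell by 2.85 on the log2 scale in Torin against stimulated cells (SE 0.41, adjusted p = 0.00676, edgeR). Within numbers 1, 3 and 4 it was 15.0-, 3.67- and 7.87-fold lower. The call held without each single library (changes of -3.09 to -2.54). It was lost without all libraries of number 4 (-2.80, adjusted p = 0.0793) and within the libraries of description prefix S alone (-2.53, adjusted p = 0.147), where 55 and 0 of all genes passed and 3526 and 2842 had an unadjusted p below 0.05. Against naive cells the Torin difference was -0.38 (95% interval -1.19 to 0.43, adjusted p = 0.475). In all 11 libraries 87.5% to 98.4% of Prf1 counts lay in 1 transcript, Prf1-202, whose start lies 3 bases from that of the promoter window shown above.

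Between stimulated and Torin libraries, 3 of the 10 genes did not overlap, Gzmb, Gzmc and Prf1, each lower with Torin. Of all genes tested, 19.7% did not overlap between these groups, and 10.1% did not overlap and were lower with Torin. In stimulated against naive libraries 5 of the 10 genes did not overlap, each higher, beside 41.5% of all genes and 19.8% higher.

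Serglycin carries the sulphated chains on which granzymes and perforin are packed. Srgn (ENSMUSG00000020077) was the most abundant of the 10 genes per length of exon in each group, at 334 ± 48.3 CPM per kilobase in naive, 1152 ± 293 in stimulated and 1182 ± 202 in Torin libraries (mean ± SD, n = 4, 4 and 3). In CPM it stood at 635, 860, 658 and 781 in naive 1 to 4, at 1716, 3020, 3067 and 2313 in stimulated 1 to 4, and at 2438, 2252 and 3097 with Torin. All libraries given N4 lay above all naive libraries. The rise was 1.79 with N4 (SE 0.21, adjusted p = 6.16e-05) and 1.82 with N4 and Torin (SE 0.22, adjusted p = 0.000147, edgeR), both on the log2 scale. Torin differed from stimulated cells by 0.04 on that scale (95% interval -0.44 to 0.51, adjusted p = 0.962).

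Srgn is made by most blood cells that carry granules, so the granulocyte RNA in naive 2 and stimulated 2 is given beside it: these 2 libraries held 860 and 3020 CPM, the highest of the naive group and the second highest of the stimulated group. Without the libraries of number 2 its rise was 1.77 (adjusted p = 0.000667), and it lay between 1.69 and 1.93 on the log2 scale when any 1 library was left out. The share of Srgn counts in its main transcript, Srgn-201, stayed between 86.3% and 89.7% across the 11 libraries, and Srgn-204 held 10.3% to 13.7%.

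Serpinb9 encodes a cytosolic serpin that inactivates granzyme B. Its levels (ENSMUSG00000045827) were 25.6, 26.6, 6.47 and 25.02 CPM in naive 1 to 4, 99.8, 191, 109 and 120 CPM in stimulated 1 to 4, and 90.1, 109 and 174 CPM with Torin. Libraries given N4 did not overlap with naive ones, whether Torin was present or not. The rise was 2.64 with N4 (SE 0.43, adjusted p = 0.000551) and 2.57 with N4 and Torin (SE 0.44, adjusted p = 0.00126, edgeR), and the Torin libraries differed from the stimulated ones by -0.06 (95% interval -1.02 to 0.90, adjusted p = 0.97). That interval is wide, and it does not show that the levels were equal.

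Set against each other per length of exon, Gzmb and Serpinb9 moved apart with N4. The ratio of Gzmb to Serpinb9 in CPM per kilobase was 4.34, 0.967, 0.632 and 0.502 in naive 1 to 4, 8.89, 16.4, 4.58 and 27.9 in stimulated 1 to 4, and 2.61, 2.31 and 2.83 with Torin. Each stimulated library had a higher ratio than each of the others. The Torin libraries lay inside the naive range only through naive 1, and above naive 2, 3 and 4. The ratio of Prf1 to Srgn was 0.0191, 0.00683, 0.0137 and 0.0113 in naive, 0.0455, 0.0102, 0.00924 and 0.0262 in stimulated, and 0.00214, 0.00343 and 0.00249 in Torin libraries. Here the naive and stimulated libraries overlapped, and each Torin library lay below all others. These ratios are descriptions of single libraries and were not tested.

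Fas ligand triggers the death receptor Fas on target cells and on activated T cells themselves. Fasl (ENSMUSG00000000817) stood at 1.87, 1.56, 4.21 and 7.40 CPM in naive 1 to 4, at 4.28, 3.72, 8.52 and 12.0 CPM in stimulated 1 to 4, and at 9.88, 19.3 and 36.6 CPM in Torin 1, 3 and 4. Stimulated libraries overlapped with both other groups, while all 3 Torin libraries lay above all naive ones. Within numbers 1, 3 and 4 the order was naive, then stimulated, then Torin, and in number 2, without a Torin library, stimulated lay above naive. Ratios of stimulated to naive were 2.29, 2.39, 2.03 and 1.63 in numbers 1 to 4. Those of Torin to stimulated were 2.31, 2.26 and 3.04 in numbers 1, 3 and 4. Naive below stimulated below Torin in each of the 3 numbers that have all groups was found for 3.92% of all genes tested.

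The rise of Fasl in Torin against naive cells was 2.54 on the log2 scale (SE 0.63, adjusted p = 0.0101, edgeR). The differences of stimulated from naive cells (0.93, SE 0.58, adjusted p = 0.235) and of Torin from stimulated cells (1.62, SE 0.62, adjusted p = 0.174) missed the threshold. With the replicate number as a block both passed, at 1.04 (adjusted p = 0.0008) and 1.29 (adjusted p = 0.0108), in fits where 41.2% and 4.34% of all genes passed. Nearly all Fasl counts, at least 99.6%, lay in 1 transcript, Fasl-201.

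TRAIL, the other death ligand, binds death receptors that in mice include the product of Tnfrsf10b. Tnfsf10 (ENSMUSG00000039304) stood at 0.733, 1.77, 1.61 and 1.58 CPM in naive 1 to 4, 0.972, 1.92, 0.399 and 2.82 CPM in stimulated 1 to 4, and 0.465, 0.989 and 2.90 CPM with Torin. The groups overlapped throughout. The log2 differences were 0.10, -0.07 and 0.03 in the 3 comparisons (adjusted p of 0.92, 0.981 and 0.98, edgeR). Their standard errors, 0.65 to 0.71, were larger than the differences themselves.

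**Figure D3:**
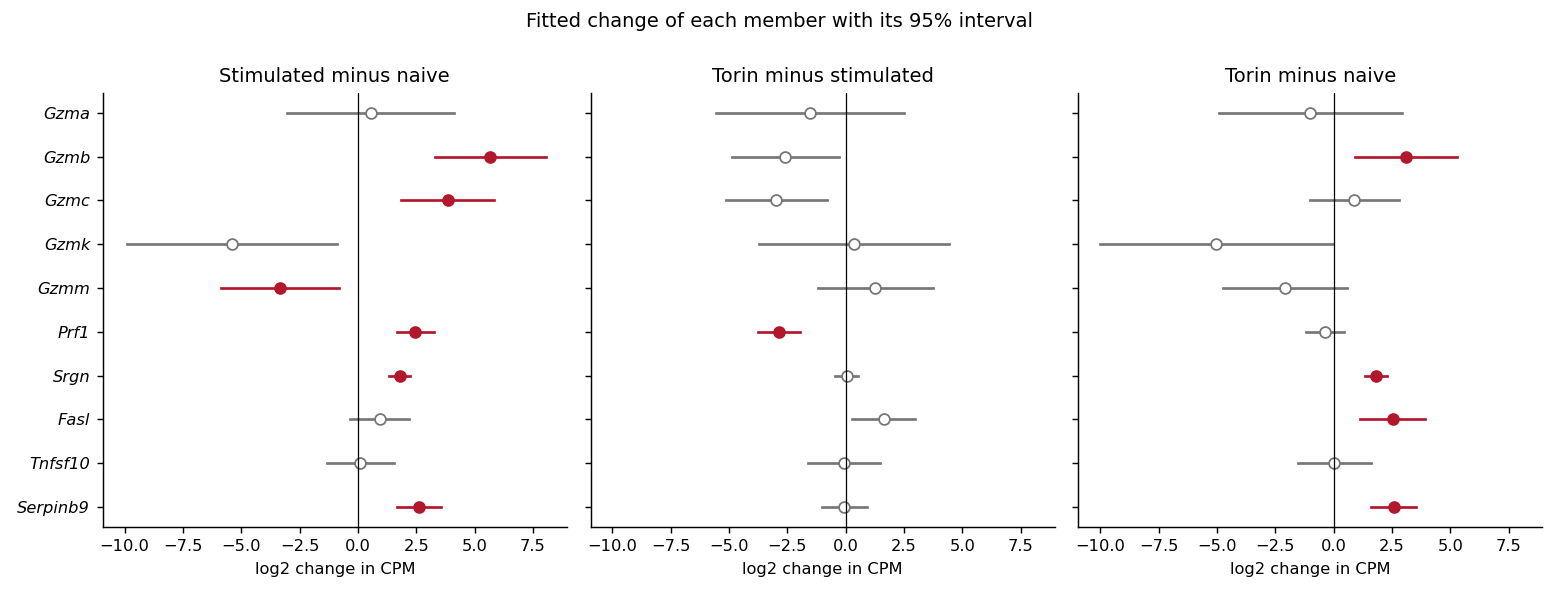
Fitted log2 change of each of the 10 genes in the 3 comparisons, with its 95% interval. Filled red points passed an adjusted p below 0.05 (edgeR), and open grey points did not. Srgn and Serpinb9 sit near 0 for Torin against stimulated cells and above 0 in both comparisons with naive cells, Prf1 sits at -2.85 and -0.38 with Torin, and the intervals of Gzma and Gzmk are the widest.

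**Figure D4:**
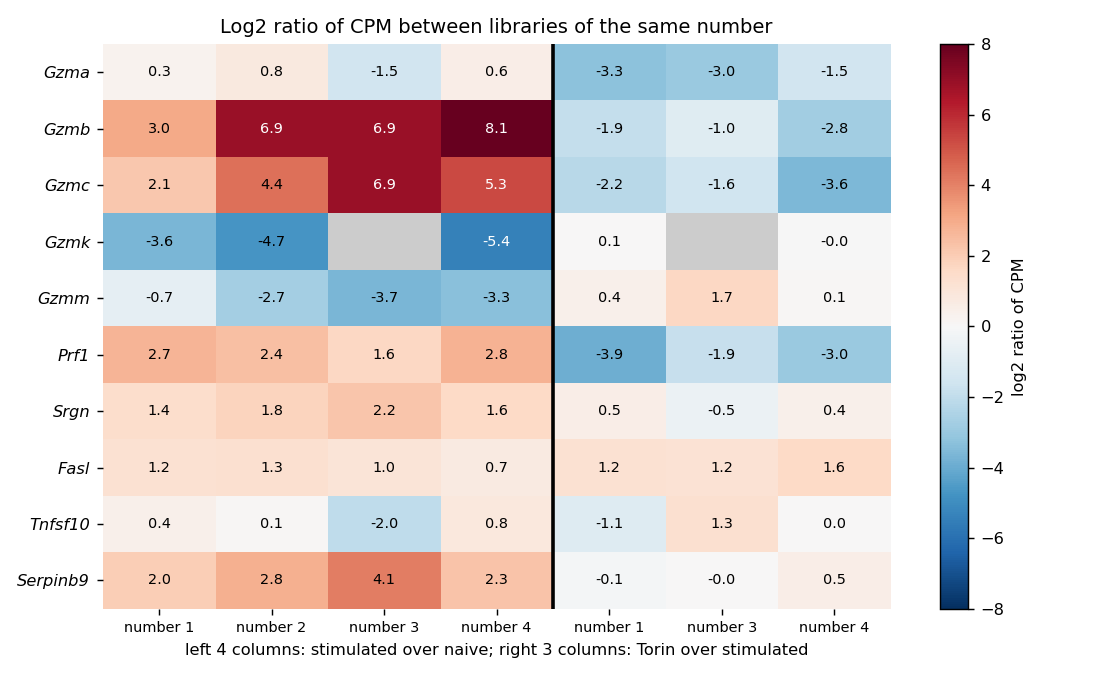
Log2 ratio of CPM between libraries of the same replicate number, stimulated over naive in the left 4 columns and Torin over stimulated in the right 3. Red is higher, blue is lower, and grey marks Gzmk in number 3, where a level was 0. Gzmb, Gzmc, Prf1 and Gzma are blue in each right-hand column, Fasl is red in all 7 columns, and Srgn and Serpinb9 change sign among the right-hand columns.

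In order of level per kilobase of exon, stimulated libraries ran Srgn, Gzmb, Gzma, Serpinb9, Prf1, Gzmc, Fasl, Gzmm, Tnfsf10 and Gzmk by mean. Gzmb held 143 to 957 CPM per kilobase and overlapped with Gzma (3.29 to 311), whose range also took in Serpinb9 (28.6 to 54.7) and Prf1 (12.9 to 35.6). With Torin the order was Srgn, Gzmb, Gzma, Serpinb9, Fasl, Prf1, Gzmc, Gzmm, Tnfsf10 and Gzmk. The place of Gzma there rests on Torin 4, with 107 CPM per kilobase against 1.74 and 0.423 in Torin 1 and 3. Fasl (5.10 to 18.9 CPM per kilobase) then lay above Prf1 (2.38 to 3.52), while in stimulated libraries every Prf1 value lay above every Fasl value (1.92 to 6.21).

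The genes whose log2 CPM most resembled each member across all 11 libraries were found among 5391 genes with a mean of at least 10 CPM. For Gzmb they were Il2, the interleukin 2 gene, and Pla2g12a (Pearson's r of 0.976 for each). For Gzmc they were Irf8 and Slc7a3 (0.969 each), for Prf1 Cyb561d2 and Sra1 (0.951 and 0.945), and for Serpinb9 Slamf7 and Mtpap (0.976 and 0.969). For Srgn they were Psmg2 and Nutf2 (0.995 and 0.989), and for Fasl Tmed3 and Eef1akmt1 (0.914 and 0.904). Gzma was most like Fscn1 and Casp6 (0.888 and 0.877), Gzmk like Pdlim4 and Ppic (0.940 and 0.938), Gzmm like Vkorc1 and Dynlrb1 (0.908 and 0.860), and Tnfsf10 like Rhoc and Mad2l1 (0.849 and 0.795). Among the members themselves the highest were Gzmb with Gzmc (0.94), Srgn with Serpinb9 (0.93) and Gzmb with Serpinb9 (0.91). All these values are descriptions over libraries that share their groups and numbers.

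Other proteins of the cytotoxic granule passed with N4 in shares near those of all genes, 19.2% higher and 20.2% lower. In the list of granule proteins and granzyme processing, 4 of 16 genes rose and 4 fell with N4 (median -0.09, all genes -0.22), none passed with Torin against stimulated cells (median -0.39, all genes -0.02), and 4 rose and 6 fell in Torin against naive cells. Over all genes 4.62% passed in Torin against stimulated cells and 32.2% in Torin against naive cells. In the Torin and stimulated comparison 2 of the 16 had an unadjusted p below 0.05 in edgeR, and DESeq2 called 1, Ctsl. Nkg7, which encodes a granule membrane protein needed for degranulation, rose from 1350 to 2017 CPM in naive to 5258 to 9459 CPM in stimulated libraries (log2 change 2.17, SE 0.22, adjusted p = 3.29e-05, edgeR). It stood at 4099 to 5999 CPM with Torin, above naive cells by 1.62. Lamp3 rose with N4, though only to 0.505 ± 0.065 CPM (n = 4). M6pr, which encodes a mannose 6-phosphate receptor that sorts granzymes, rose by 1.43 in Torin against naive cells. Igf2r, another such receptor gene of this list, went the other way. It fell by 1.33 with N4 and by 1.67 in Torin against naive cells. Ctsw, a cathepsin gene of cytotoxic cells, fell with N4 from 110 ± 28.1 to 14.5 ± 6.81 CPM, and Ctsd, a lysosomal protease gene, from 307 ± 77.3 to 55.2 ± 20.7 CPM. Myeloid markers were lower as well: of 14 monocyte and macrophage markers 7 fell with N4 (median -2.59), and of 14 granulocyte markers 3 fell (median -2.96), and their part in the falls of these lysosomal genes was not tested. Ctsw and Ctsh fell in Torin against naive cells by 3.27 and 3.34 on the log2 scale.

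The machinery that moves and fuses granules held more genes that fell with N4 than genes that rose. Of 26 genes listed, 25 were matched and tested; 1 rose, 12 fell and 12 did not pass with N4, beside 19.2% higher and 20.2% lower over all genes, none passed with Torin against stimulated cells, and 1 rose and 10 fell in Torin against naive cells. The medians were -0.42, 0.08 and -0.55 on the log2 scale, beside -0.22, -0.02 and -0.18 over all genes. The share of all genes that passed was 4.62% in Torin against stimulated cells and 32.2% in Torin against naive cells. Between Torin and stimulated cells 5 exocytosis genes had an unadjusted p below 0.05 in edgeR, and DESeq2 called 2, Dock8 and Unc13d. Stx11, a syntaxin required for granule fusion, rose from 6.62 ± 2.01 to 18.1 ± 5.18 CPM with N4 and stood at 18.4 ± 10.6 CPM with Torin. Coro1a, an actin regulator, fell with N4 from 1515 ± 407 to 368 ± 153 CPM, and Sytl1, a Rab27 effector, from 8.79 ± 4.25 to 0.728 ± 0.83 CPM. Dock8, a regulator of the actin cytoskeleton, fell by 1.87 in Torin against naive cells, from 21.8 ± 1.76 to 5.97 ± 1.304 CPM.

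Among granzyme-inhibiting and related serpins, 9 of 14 genes were tested; 4 rose and 3 fell with N4, none passed with Torin against stimulated cells, and 2 rose and 1 fell in Torin against naive cells. Over all genes, 19.2% rose and 20.2% fell with N4, 4.62% passed in Torin against stimulated cells and 32.2% in Torin against naive cells. With Torin against stimulated cells 2 serpin genes had an unadjusted p below 0.05 in edgeR, and DESeq2 called 1, Serpine2. Serpinb6b, a relative of Serpinb9, rose from 10.8 ± 3.15 CPM in naive to 88.2 ± 15.3 CPM in stimulated libraries and stood at 136 ± 28.1 CPM with Torin. Serpina3f also rose with N4, by 2.68 on the log2 scale. Serpini1 and Serpinb1a fell with N4, by 2.69 and 1.95. Serpinb9 shared 80.3% to 82.8% of aligned transcript bases with its nearest relatives Serpinb9b to Serpinb9g, so reads that fit several of these genes are a limit here too.

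The list of death receptors and their adaptors holds the receiving side of these pathways, with genes of granzyme A-induced DNA damage. Of its 26 genes, 9 rose and 10 fell with N4, and 1 rose and 2 fell with Torin against stimulated cells. In Torin against naive cells 7 rose and 6 fell. The shares over all genes were 19.2% higher and 20.2% lower with N4. In the 2 Torin comparisons 4.62% and 32.2% of all genes passed. Bax, a pore former of mitochondria, fell with Torin from 2390 ± 335 to 1160 ± 269 CPM (adjusted p = 0.0236, edgeR), and Tnfrsf10b, the TRAIL receptor gene, from 5.41 ± 0.713 to 2.68 ± 0.427 CPM (adjusted p = 0.0415). Nme1 and Apex1, whose products are tied to granzyme A-induced DNA damage, rose with N4 by 3.19 and 2.75 on the log2 scale, while Endod1 and Hmgb2 fell by 2.48 and 2.07.

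Other ligands of the TNF family were listed beside Fasl, whose own difference with N4 missed the threshold in the fit without the replicate block. Of these 12 ligands, 6 rose and 1 fell with N4, beside 19.2% higher and 20.2% lower over all genes. With Torin against stimulated cells 1 rose, where 4.62% of all genes passed. In Torin against naive cells 5 rose and 1 fell, where 32.2% of all genes passed. The medians were 1.27, 0.01 and 1.5 in this order, beside -0.22, -0.02 and -0.18 over all genes. Tnfsf14 (LIGHT) rose from 1.51 ± 1.06 to 18.5 ± 4.11 CPM and Tnfsf8 (CD30 ligand) from 44.4 ± 26.3 to 530.2 ± 233 CPM. Tnfsf4, the OX40 ligand gene, rose with Torin from 9.03 ± 1.75 to 37.4 ± 21.4 CPM (adjusted p = 0.0118, edgeR). Tnfsf11, which encodes RANKL, was higher in Torin than in naive cells by 4.34. Ltb (lymphotoxin beta) fell with N4 from 3955 ± 512 to 283 ± 199 CPM.

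Among transcription factors tied to the cytotoxic programme, 9 of 32 rose and 12 fell with N4, beside 19.2% higher and 20.2% lower over all genes. With Torin against stimulated cells 4 rose and 2 fell, where 4.62% of all genes passed. In Torin against naive cells 9 rose and 6 fell, where 32.2% passed. Runx3, whose product binds cytotoxic genes in CD8 T cells, stood at 47.3 ± 3.57, 20.8 ± 2.46 and 9.18 ± 2.90 CPM in naive, stimulated and Torin libraries. Its fall with Torin was 1.18 on the log2 scale (SE 0.22, adjusted p = 0.0157, edgeR), and Nfatc2 fell by 1.95 (adjusted p = 0.0276), from 1.65 ± 0.611 to 0.427 ± 0.0397 CPM. Eomes, a T-box factor of cytotoxic and memory cells, rose with Torin from 9.49 ± 4.04 to 38.2 ± 6.07 CPM (adjusted p = 0.0215), and Fos from 5.002 ± 1.56 to 27.2 ± 11.9 CPM (adjusted p = 0.0342). Irf4 and Myc rose with N4 by 4.20 and 3.10, and Klf2 and Tcf7 fell by 5.09 and 3.08.

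Genes of memory-phenotype CD8 T cells were counted because such cells carry granzymes before stimulation. Of 15, 1 rose and 7 fell with N4, beside 19.2% higher and 20.2% lower over all genes. With Torin against stimulated cells 4 rose and 2 fell, where 4.62% of all genes passed. In Torin against naive cells 2 rose and 7 fell, where 32.2% passed. Ccl5, a chemokine gene of memory and effector cells, stood at 1777 ± 1106, 277.9 ± 110 and 2938 ± 1527 CPM in naive, stimulated and Torin libraries, and its difference between Torin and stimulated cells was 3.40 (SE 0.55, adjusted p = 0.0108, edgeR). Ly6a and Ly6c2 fell with Torin, by 2.09 and 2.12. Cd44 was higher in Torin than in naive cells by 2.49, and Il18r1 and S100a6 fell by 3.22 and 2.71 with N4.

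**Figure D5:**
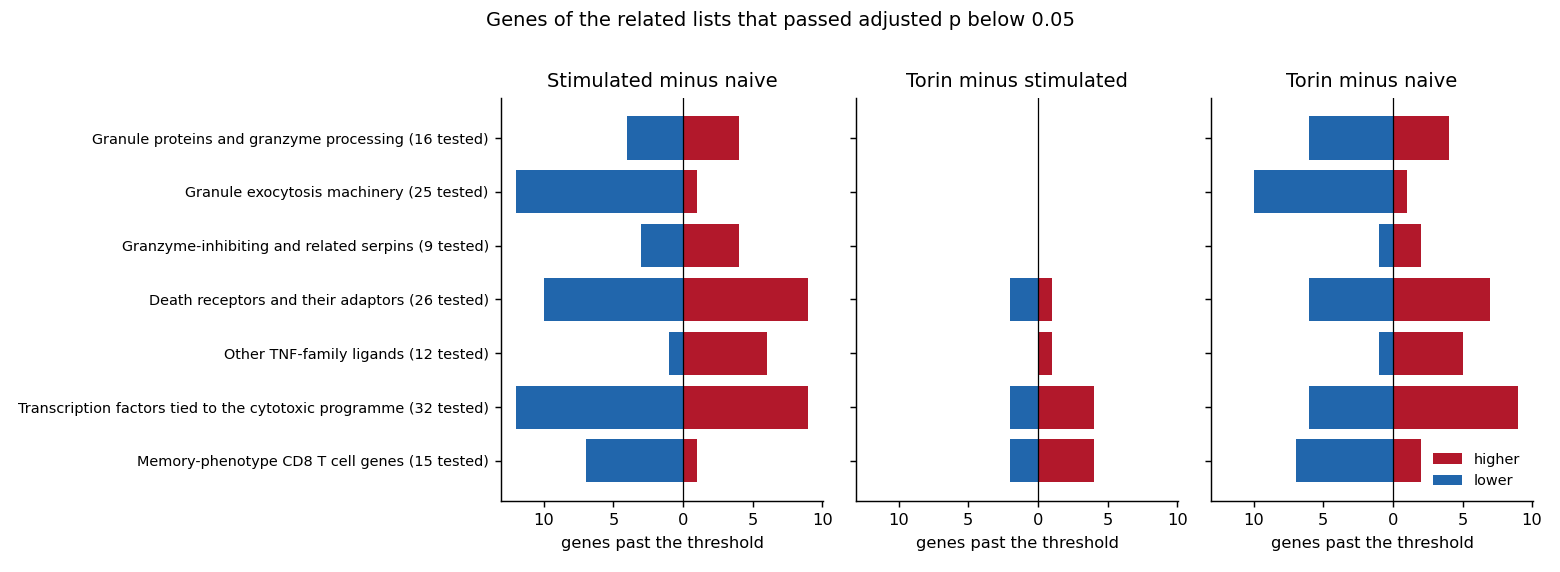
Number of genes per related list that passed an adjusted p below 0.05 (edgeR), higher to the right in red and lower to the left in blue, in the 3 comparisons; the number tested is given with each list. With N4 the exocytosis list has 12 lower and 1 higher gene, and in Torin against stimulated cells the granule, exocytosis and serpin lists have none. Over all genes 19.2% were higher and 20.2% lower with N4, and 4.62% passed in Torin against stimulated cells.

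Directions depend on the scaling. Only 2 scalings were compared here, and neither measures RNA per cell. With library totals alone, in place of composition factors, the median log2 change of all genes moved from -0.22 to -0.71 in stimulated against naive cells, from -0.02 to 0.11 in Torin against stimulated cells and from -0.18 to -0.52 in Torin against naive cells. Of the genes called, the share that was higher moved from 48.7% to 28.5%, from 50.1% to 67.6% and from 50.9% to 33.4%. Relative to these medians the rise of Srgn with N4 was 2.01 and 1.99 under the 2 scalings, and that of Prf1 2.69 and 2.71. The difference of Prf1 with Torin was -2.82 and -2.86. A change of scaling moves all genes of a library by the same factor, so these pairs had to be alike. They are no test of how far the members depend on the scaling. With library totals alone Gzmb in Torin against naive cells missed the threshold (adjusted p = 0.0718, where 30.7% of all genes passed) and Gzmk in stimulated against naive cells passed it (0.0467, where 41.1% passed).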

How the data were processed

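Gene and transcript tables covered 11 libraries at 12 h: 4 naive, 4 stimulated and 3 Torin. The values are estimated counts, whole numbers used as deposited by the authors. Per the submitters' processing notes, the software comprised StringTie 2.1.0, STAR 2.7.1a, DESeq2 1.30.1, SAMtools 1.9 and R 4.0.5, with no role stated for any, and the genome was mm39. Per the labels' protocols, RNA was extracted with a miRNeasy Micro kit and amplified with the SMARTer ultra-low poly(A) V4 chemistry. Totals were 241.9e6 to 405.9e6 per library. They are larger than read numbers usually are, which the labels do not explain, so no counting interval was computed and errors rest on the spread between libraries. Gene-table columns headed "Control" were taken as the libraries titled Stim, the one group besides naive and Torin, by their numbers; no title holds that word. Transcript-table columns carry the numbers of the descriptions, and under this match the totals are equal between the tables in all 11 libraries. The 0 unused columns leave nothing out.

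Symbols came from GENCODE M21 by Ensembl identifier (52081 genes, 94.0%). Exon lengths and transcript sequences are from the same annotation, on GRCm38, and promoter windows of 250 bases are from RefSeq on GRCm38.p6. No coordinate on mm39 was used. CPM is the estimated count divided by the TMM-scaled library size; log2 CPM used a prior count of 2. The main test was the quasi-likelihood F test of edgeR 4.0.16 (R 4.3.3), with 3 group means over all 11 libraries, after filterByExpr at a minimum count of 10 (22238 genes), with p-values adjusted by Benjamini and Hochberg over all of them and a threshold of 0.05. The common biological coefficient of variation was 0.79. Alternatives were DESeq2 1.42.0, scaling by library totals alone, testing without a filter or at a minimum mean of 5 CPM, the replicate block, only the 2 groups compared, the description prefix (A, B or S, not explained in the labels) as a covariate, prefix S alone, and leaving out libraries. In the fits with 1 library left out, all groups shared 1 estimate of the spread.

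Deviations from the group mean correlated between libraries of the same number at 0.16, 0.23, 0.15 and 0.29 (stimulated and naive, numbers 1 to 4) and 0.11, 0.15 and 0.31 (Torin and stimulated, numbers 1, 3 and 4). All exceed 0.1, so numbers were taken from the data as pairing these samples, and blocked values are given where they change a call. No 2 libraries were duplicates (lowest chi-square per gene 286.1). On simulated data with 100 genes changed at each fold, edgeR recovered 7% at 2-fold and 44% at 4-fold for stimulated against naive cells (21301 genes, 2 false calls). It recovered 2% and 41% for Torin against stimulated cells (21309 genes, 1 false call), and 6% and 41% for Torin against naive cells (21309 genes, 1 false call).

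The members and gene lists were chosen with earlier results of these data known. Named genes were all 10 members, up to 2 genes with the largest rise and 2 with the largest fall past the threshold in each list and comparison, the 2 genes most like each member, and markers of other cell types where their sum stood apart. The likeness search left out predicted genes and segments of antigen receptors. The lists were: other granzymes, granule proteins, exocytosis machinery, serpins, death receptors, other TNF-family ligands, transcription factors, memory-phenotype genes, and markers of CD8 T cells and of other cell types. Runx3, Nfatc2, Igf2r, Cd8a, Cd3e, Cd4, Klrb1c, Klra4, Klra8, Klra9, Klre1, Ncr1, Trdc, Zbtb16, Fcgr3 and Tcrg-C2 were named to set beside a result. Some genes that this rule names in the death receptor list are not reported here. Protein sequences were not used here. Biopython 1.88 aligned transcripts.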

Additional observations from a re-analysis of the deposited data

Results flagged for a closer look

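Among 36 groups of 4 libraries examined, 8 held a library far from the other 3 by Dixon's criterion, and chance gives about 1 in 20. Gzmk was at 31.4 CPM in naive 4, where the nearest naive library held 1.91 CPM, and at 0.73 CPM in stimulated 4, with the nearest at 0.0782 CPM. Serpinb9 was at 6.47 CPM in naive 3, below the nearest at 25.02 CPM.

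Summed B cell and plasma cell markers were 48312 CPM in naive 4, with the nearest at 370 CPM, and 14596 CPM in stimulated 4, with the nearest at 117.6 CPM. Igkc, Jchain and Mzb1 were at 46939, 652.3 and 262.5 CPM in naive 4 and at most 16.9, 1.18 and 0.163 CPM in the other naive libraries. Summed granulocyte markers were 8831 CPM in naive 2 (nearest 180.7 CPM) and 2105 CPM in stimulated 2 (nearest 43.6 CPM), with S100a8 at 4739 and 1218 CPM. Summed monocyte and macrophage markers were 2469 CPM in naive 2, with the nearest at 514.5 CPM. Torin libraries, 3 in number, were not examined in this way.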

How the results depend on the processing

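Across 22 alternatives per result, 554 of the member values kept direction and side of the threshold, 26 passed newly, 19 no longer passed and 46 changed sign. What depth limits was not tested, since the estimated counts allow no counting interval. A mean CPM of at least 5 left Gzmc, Gzmk, Gzmm and Tnfsf10 without values, and DESeq2 gave no adjusted p for Gzmk.

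For Torin against stimulated cells, the count of members that passed, 1 in the report, was 3 with DESeq2, 2 with the replicate block, 2 with only the 2 groups, 2 with the prefix as covariate, 0 within prefix S, 0 without number 4, 3 with the replicate block fitted to 2 groups, and 1 to 2 with 1 library left out. The count over all genes, 1027, was 2959 with DESeq2, 656 with no filter, 675 with the prefix, 0 within prefix S, 55 without number 4, 338 without number 2, 544 with the block on 2 groups, and 144 (without Torin 3) to 1058 with 1 library left out. Within prefix S, 3 members had an unadjusted p below 0.05 in edgeR, as did 3 without number 4. The count over all genes was 463 without stimulated 2, 441 without stimulated 4, 261 without Torin 1 and 541 without Torin 4. Within prefix S, 5210 genes passed in stimulated against naive cells (8773 in all libraries) and 3594 in Torin against naive cells (7163).

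Deviations of same-numbered Torin and naive libraries correlated at 0.08, 0.13 and 0.28, not all over 0.1. With the replicate block 7 members passed there instead of 4. These added Gzma (-2.66, adjusted p = 0.0122, edgeR), Gzmk (-5.71, 0.00487) and Gzmm (-2.02, 0.0273). The count over all genes in that fit is not given here, so the 7 members have no background beside them. Over the alternatives of this comparison it ran from 3594 to 9244, against 7163 in the main fit. The block ended no call of a member.

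Signs changed only for members that did not pass. In stimulated against naive cells, Gzma was -0.06 with the block and -0.94 to 2.03 with 1 library left out. Tnfsf10 there was -0.32 with library totals, -0.11 with the block, -0.22 without number 4, -0.04 with the block on 2 groups, and -0.38 to 0.49 with 1 library left out. In Torin against stimulated cells, Gzmk was -0.17 with the block, -0.03 with the prefix and within prefix S, -0.01 without number 2, and -2.36 to 2.96 with 1 left out. Srgn was -0.01 within prefix S, -0.13 without number 4, and -0.11 to 0.13 with 1 left out. Tnfsf10 was 0.05 with library totals, 0.28 within prefix S, 0.06 without number 2, 0.12 with the block on 2 groups, and -1.05 to 0.41 with 1 left out. Serpinb9 was 0.09 with library totals, 0.11 with the block, 0.14 with the prefix, 0.31 within prefix S, 0.18 without number 2, 0.16 with the block on 2 groups, and -0.37 to 0.18 with 1 left out. In Torin against naive cells, Gzma was -5.98 to 0.49 with 1 left out. Tnfsf10 there was -0.00 with DESeq2, -0.26 with library totals, -0.18 with the block, -0.79 without number 4, -0.13 with the block on 2 groups, and -0.86 to 0.46 with 1 left out. The cause of these shifts was not tested.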
